A study of Homo sapiens with 6 samples.

Results

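The genes described here are 10 ligands and receptors of the tumor necrosis factor (TNF) superfamily, chosen by symbol: the ligands TNF, LTB, TNFSF9, TNFSF13B, TNFSF14 and TNFSF15 and the receptors TNFRSF9, TNFRSF1A, TNFRSF1B and CD40. Each symbol matched 1 gene, so they make up 10 of the 29889 genes in the count table. They were followed in A549 cells, a human lung adenocarcinoma line, after transfection with a pIRES-hrGFP-1a plasmid carrying CELF6 (CELF6-OE) or with the empty plasmid (Control). CELF6 is an RNA-binding protein that acts in splicing and mRNA stability. Cells of each group received Lipofectamine 2000 and were harvested after 48 h, with 3 biological replicates per group and 6 polyadenylated RNA libraries in all. The transfection was transient and in a single cell line, and no step that selects the transfected cells is described, so the share of cells that carried a plasmid is not known.

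Ligands of the TNF superfamily are mostly made as membrane proteins that act as trimers, and several are released from the cell by proteases. Their receptors carry no enzyme of their own. They recruit TRAF or death domain adaptors, which lead to NF-kB and MAP kinase signaling or, for some receptors, to cell death. Many members are best known from lymphocytes and myeloid cells, whereas TNFRSF1A is found on most cell types, and epithelial cells induce several others during inflammation.

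The libraries held 33748328 to 37920700 counts on genes. CELF6 reached 18646, 20789 and 11571 counts in the CELF6-OE libraries and 0 in each Control library (exact permutation test on FPKM, two-sided, p = 0.1, which is the lowest value 3 against 3 libraries can give). Its FPKM in replicate 3 was 61% of the mean of replicates 1 and 2. The epithelial label was checked with keratins, and KRT8 and KRT18 had mean FPKM values of 1864 and 1862 in CELF6-OE and 2530 and 2334 in Control. EPCAM, another epithelial marker, was low, with mean FPKM values of 1.03 in CELF6-OE and 1.34 in Control. Of the defining leukocyte markers, PTPRC held 2 counts over all 6 libraries, CD14 had mean FPKM values of 3.80 in CELF6-OE and 3.32 in Control, and CD3E was not analysed here.

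One receptor was far more abundant than any other gene of the set. In Control, TNFRSF1A had a mean FPKM of 154 ± 3.20 (SD, n = 3), and TNFSF9 and CD40 followed at 7.87 ± 0.514 and 7.35 ± 0.347 with overlapping libraries. The deposited FPKM values correct for transcript length and sequencing depth, so they allow levels of different genes to be compared. TNFRSF1B, TNFSF13B and TNFRSF9 came next in Control, at mean FPKM values of 1.73, 1.34 and 1.16, and the neighbours in this order overlapped. LTB, TNFSF14, TNFSF15 and TNF were at 0.320, 0.200, 0.140 and 0.107, again with each neighbour overlapping the next. In CELF6-OE the order changed in the middle. TNFSF9 was at 6.21 ± 0.259 and no longer overlapped CD40, at 2.81 ± 0.406, and TNFRSF9, at 0.877 ± 0.145, lay above TNFRSF1B, at 0.460 ± 0.135, without overlap. Thus, 4 of the 10 genes were below an FPKM of 1 in both groups, and for these the counts set the precision.

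**Figure D1:**
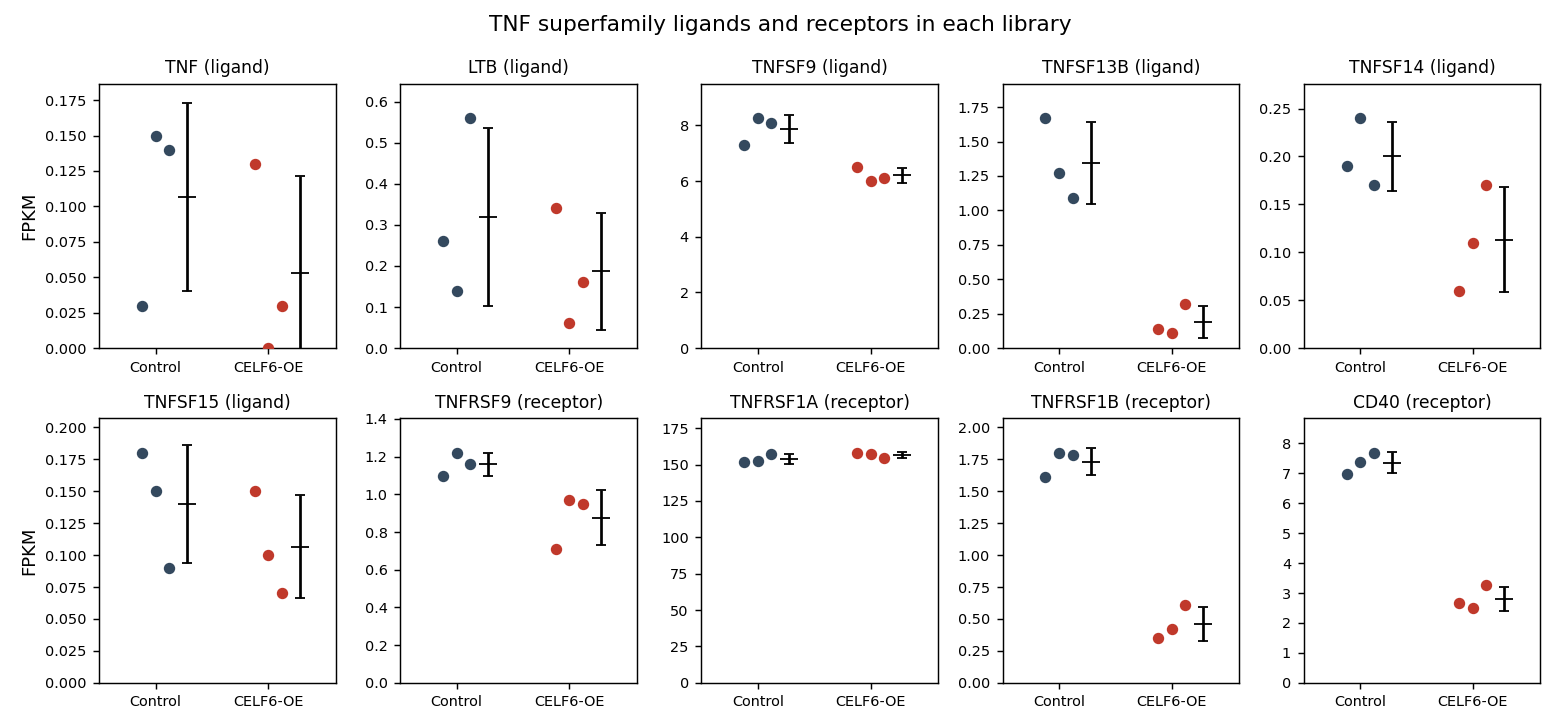
FPKM (y axis, linear and starting at 0, with its own scale for each gene) of the 10 genes in the 3 Control and 3 CELF6-OE libraries. Points are libraries in replicate order, and the bar beside them is the mean with the SD, cut off at 0 for TNF in CELF6-OE. CD40, TNFRSF1B and TNFSF13B separate clearly by group, TNFRSF1A lies between 151.6 and 158.04 in all libraries, and TNF and LTB overlap.

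The sequences around the start sites of these genes were searched for short motifs of the transcription factors that act in interferon and TNF signaling. RefSeq promoter sequences (GRCh38.p14, 250 bases before to 50 after the RefSeq start) were at hand for 9 of the 10 genes and not for CD40. The core of the interferon-stimulated response element, GAAA, 2 free bases and GAAA on either strand, was present in 4 of the 9, namely TNFRSF1B, TNFSF13B, TNFSF9 and TNFSF14, whereas 4.38% of the 27305 genes in the table held it. The NF-kB consensus was present in 3 of the 9, namely TNFRSF9, LTB and TNFSF14, against 7.09% of all genes, and the AP-1 site TGANTCA in 3, namely TNFSF14, TNFSF15 and TNFRSF9, against 9.37%. A match describes the letters in this window and does not show that a factor binds there. The matches to the first motif were picked for display with the changes given below known. They fall in TNFSF13B and TNFRSF1B, the ligand and the receptor with the largest decreases, but also in TNFSF9 and TNFSF14, whose decreases were smaller. A link between motif and decrease was not tested. Each window runs 5′ to 3′ on the strand of the gene with the match in capitals.
TNFRSF1B, chr1:12166971-12167000, plus strand, match on the opposite strand: gggcgcgggcTTTCGCTTTCagtcgagggc
TNFSF13B, chr13:108269637-108269666, plus strand: tacaaaaactGAAAGTGAAAtgaggaagac
TNFSF9, chr19:6530822-6530851, plus strand: tggaaggccgGAAACGGAAAggagagcgaa
TNFSF14, chr19:6670112-6670141, minus strand, match on the opposite strand: tgttgagcaaTTTCGGTTTCctctgaggtt
The match of TNFRSF1B begins 10 bases before the RefSeq start and that of TNFSF9 194 bases before it. The matches of TNFSF13B and TNFSF14 lie at bases 19 and 30 after it. The NF-kB matches are shown for the receptor and the ligand that hold them closest to the start, 74 and 86 bases before it.
TNFRSF9, chr1:7940894-7940923, minus strand: gagctgtggtGGGAATTTCCcatgagaccc
LTB, chr6:31582492-31582521, minus strand, match on the opposite strand: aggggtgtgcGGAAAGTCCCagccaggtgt
In TNFRSF9 the opposite strand holds an overlapping match shifted by 1 base. All these distances are from the RefSeq start. For TNFSF13B, TNFSF14, TNFRSF9 and LTB that start lies inside the gene span given below, and so does the window shown.

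The question of the design was whether CELF6-OE changed the level of these genes. Counts were scaled with TMM and tested with edgeR's quasi-likelihood test over the 15847 genes that passed a low-count filter, and a gene was called when its Benjamini-Hochberg adjusted p was under 0.05 and its level changed 1.5-fold or more. TNFSF13B, TNFRSF1B and CD40 were down-regulated in CELF6-OE and no gene of the set was up-regulated. In comparison, 5.82% of all genes tested were called lower and 1.35% higher. The filter kept 8 of the 10 genes, and each of the 8 passed it in the CELF6-OE libraries alone as well as in the Control libraries alone. TNF and LTB did not pass and were not tested. The median log2 fold change was -0.65 over the 8 genes and 0.01 over all genes tested. In bulk RNA, fewer cells that express a gene and less RNA per cell cannot be told apart.

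**Figure D2:**
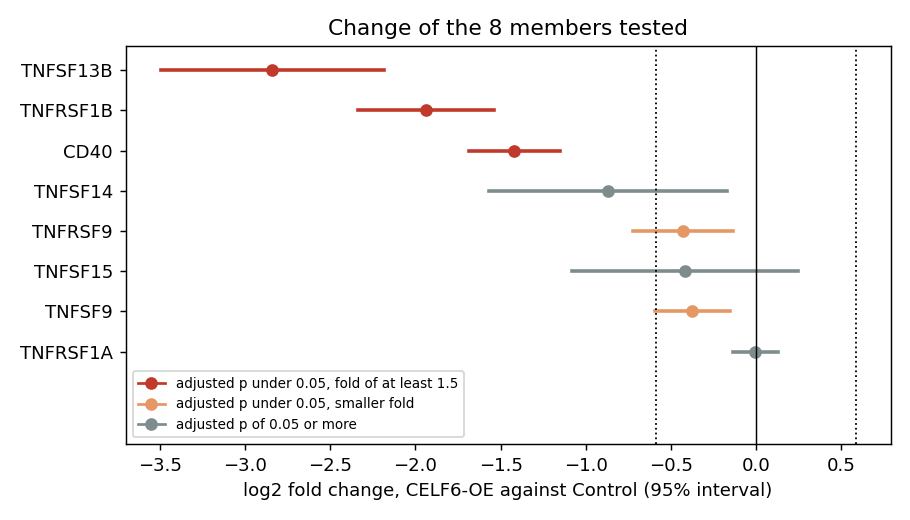
Log2 fold change of CELF6-OE against Control (x axis) for the 8 genes tested, with the 95% interval of the edgeR fit as a line and dotted lines at a fold change of 1.5. TNFSF13B at -2.84, TNFRSF1B at -1.94 and CD40 at -1.42 lie past the lower limit with their whole interval, and TNFRSF1A lies at 0.

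Among the receptors, TNFRSF1A and TNFRSF1B, which both bind TNF, gave different results. TNFRSF1A (ENSG00000067182, chr12:6328757-6342114, GRCh38), the death domain receptor of soluble TNF, was read at 17077, 17379 and 16223 counts in the CELF6-OE libraries, given in replicate order here and for each gene that follows. The Control libraries held 17097, 17873 and 18488. After scaling the groups overlapped, and the level in CELF6-OE was 99.7% of Control with a 95% interval of 90.9% to 109% (adjusted p = 0.97). TNFRSF1B (ENSG00000028137, chr1:12166991-12209228), which has no death domain and recruits TRAF2, was read at 47, 58 and 80 counts in CELF6-OE libraries and at 226, 262 and 260 in Control libraries. Every CELF6-OE library lay below every Control library, and the level was 3.83-fold lower (log2 fold change -1.94, standard error 0.18, adjusted p = 5.12e-05).

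Because both receptors were read in the same library, their ratio does not depend on library scaling. The FPKM of TNFRSF1B was 0.221%, 0.267% and 0.395% of that of TNFRSF1A in the CELF6-OE libraries, compared with 1.06%, 1.18% and 1.13% in the Control libraries. The mean ratio was 0.294% ± 0.0902 in CELF6-OE and 1.12% ± 0.0601 in Control (SD, n = 3), without overlap (exact permutation test, two-sided, p = 0.1, the lowest possible, and 0.133 after Benjamini-Hochberg adjustment over the 4 ratios computed). The ratio of CD40 to TNFRSF1A was 1.80% ± 0.283 in CELF6-OE and 4.78% ± 0.147 in Control, with the same p in the exact test.

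**Figure D3:**
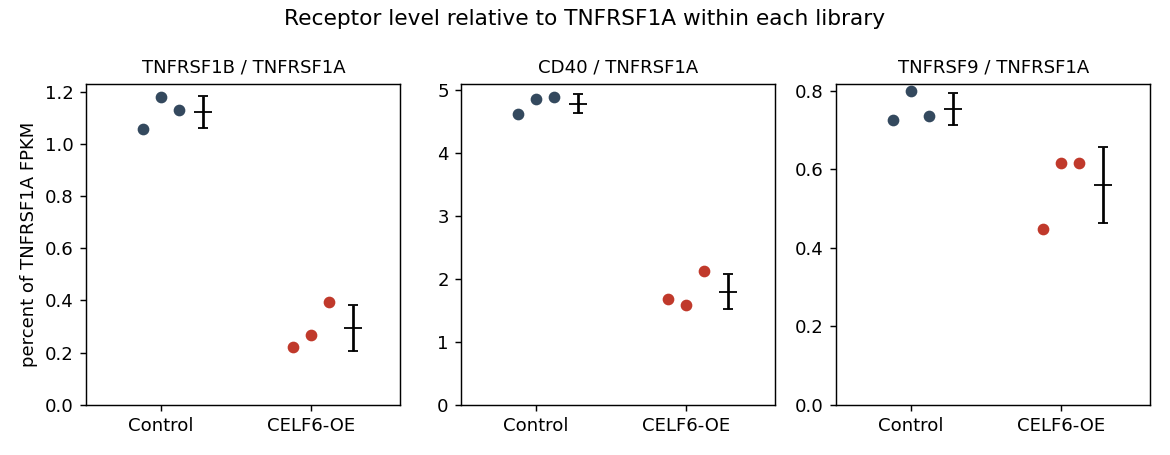
FPKM of TNFRSF1B, CD40 and TNFRSF9 as a percent of the FPKM of TNFRSF1A in the same library (y axis, from 0). Points are the 3 libraries of each group and the bar beside them is the mean with the SD. The 3 CELF6-OE libraries lie below the 3 Control libraries for each receptor, with a log2 difference of -1.98 for TNFRSF1B, -1.42 for CD40 and -0.44 for TNFRSF9.

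CD40 (ENSG00000101017, chr20:46118271-46129863), the receptor through which helper T cells license antigen-presenting cells and which epithelial cells can also carry, was read at 182, 175 and 218 counts in CELF6-OE libraries and at 500, 550 and 572 in Control libraries. The groups were well apart, and CD40 was 2.68-fold lower (log2 fold change -1.42, standard error 0.12, adjusted p = 3.23e-05). Its ligand CD40LG, a T cell protein, had 0 counts in CELF6-OE and 2 in all Control libraries together. The adjusted p of CD40 and TNFRSF1B was at most 0.000809 over the alternatives tried. On the log2(FPKM + 1) scale, which understates changes of genes with low FPKM, the difference was -1.14 for CD40 and -0.91 for TNFRSF1B.

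TNFRSF9 (ENSG00000049249, chr1:7915871-7943165), the costimulatory receptor CD137 of activated T cells, was read at 154, 214 and 201 counts in CELF6-OE libraries and at 248, 286 and 272 in Control libraries. All CELF6-OE libraries were lower, but the level was 74.3% of Control (95% interval 60.5% to 91.1%), less than a 1.5-fold change. Its adjusted p was 0.0478 and lay between 0.0148 and 0.179 over the alternatives, under 0.05 in 9 of 18. It was over 0.05 without any 1 of the CELF6-OE libraries and without Control replicate 2 or 3 (0.0596 to 0.179). Its ligand TNFSF9 (ENSG00000125657, chr19:6531026-6535924) was read at 393, 371 and 359 counts in CELF6-OE libraries and at 460, 542 and 530 in Control libraries. TNFSF9 was at 77.1% of Control (95% interval 66.3% to 89.8%, adjusted p = 0.0254, and 0.00284 to 0.131 over the alternatives), again without overlap of the groups and short of the fold threshold. The adjusted p of TNFSF9 was over 0.05 without any 1 of the CELF6-OE libraries and without Control replicate 2 (0.0592 to 0.131). An adjusted p under 0.05 without a fold limit was found for 5 of the 8 genes in the lower direction, against 11.5% of all genes, and for 0 in the higher direction, against 6.47%. The TNFSF9 level per unit of TNFRSF9 was 726% ± 164 in CELF6-OE and 678% ± 16.5 in Control (exact permutation test, p = 1), so a shift between ligand and receptor was not detectable.

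TNFSF13B (ENSG00000102524, chr13:108251240-108308484) encodes BAFF, the survival factor of B cells, which myeloid cells and interferon-treated epithelial cells produce. It was read at 14, 11 and 30 counts in CELF6-OE libraries and at 169, 134 and 115 in Control libraries, the largest change among the 8 genes tested. The level was 7.16-fold lower (log2 fold change -2.84, standard error 0.30, adjusted p = 0.0001, at most 0.00136 over the alternatives), and on the log2(FPKM + 1) scale the difference was -0.97. Only 47 of the 15847 genes tested had a more negative log2 fold change, compared with 142 for TNFRSF1B and 279 for CD40. Of the receptors of BAFF, TNFRSF13C had 35 counts in CELF6-OE and 40 in Control over the 3 libraries of each group, with a log2 fold change of -0.12 (standard error 0.47), and TNFRSF13B and TNFRSF17 were not analysed here. TNFSF13, the related ligand APRIL, had 10 counts in CELF6-OE and 58 in Control over the 3 libraries of each group. It passed the low-count filter only through Control, where it was high, so its log2 fold change of -2.42 is given as a description.

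TNFSF14 (ENSG00000125735, chr19:6661253-6670588), known as LIGHT, was read at 11, 19 and 28 counts in CELF6-OE libraries and at 35, 45 and 32 in Control libraries. After scaling, the highest CELF6-OE library, replicate 3, lay just below the lowest Control library, at 0.820 and 0.878 CPM (counts scaled to library size). The log2 fold change was -0.87 (standard error 0.32), with an adjusted p of 0.082, and between 0.0219 and 0.259 over the alternatives. Without CELF6-OE replicate 3 it was -1.26 with an adjusted p of 0.0296 (edgeR). With all libraries it was 0.0386 in edgeR's exact test and 0.0219 without the low-count filter. Among its receptors, TNFRSF14 (HVEM) was read at 3, 5 and 9 counts in CELF6-OE libraries and at 25, 46 and 41 in Control libraries. TNFRSF14 passed the low-count filter only through Control, where it was high, so its log2 fold change of -2.62 is likewise given as a description. LTBR, the lymphotoxin beta receptor, which also binds LIGHT, had mean FPKM values of 94.6 in CELF6-OE and 103 in Control and a log2 fold change of -0.15 (adjusted p = 0.153).

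TNFSF15 (ENSG00000181634, chr9:114784652-114806039), known as TL1A, was read at 42, 29 and 20 counts in CELF6-OE libraries and at 53, 46 and 29 in Control libraries. The groups overlapped, and its level was 74.9% of Control with a 95% interval of 47.2% to 119% (adjusted p = 0.37). This interval holds a 1.5-fold decrease as well as no change, so the counts did not settle the direction. TNFRSF25, the receptor of TL1A, had 38 counts in CELF6-OE and 36 in Control, with a log2 fold change of 0.15 (standard error 0.38).

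TNF (ENSG00000232810, chr6:31575565-31578336) and LTB (ENSG00000227507, chr6:31580525-31582522), neighbours 2.19 kb apart in the MHC region, were close to the limit of detection. TNF, the founding cytokine of the family, was read at 8, 0 and 2 counts in CELF6-OE libraries and at 2, 10 and 9 in Control libraries. LTB, which forms the membrane heterotrimer with lymphotoxin alpha, was read at 11, 2 and 5 counts in CELF6-OE libraries and at 9, 5 and 20 in Control libraries. The groups overlapped for each gene. The ratio of the summed counts, CELF6-OE to Control after scaling, was 0.501 for TNF (exact 95% interval 0.211 to 1.11) and 0.557 for LTB (0.296 to 1.01), and these intervals cover counting error only. A difference in either gene was not detectable at this depth, and the count of 0 for TNF in CELF6-OE replicate 2 allows up to 3. In edgeR's test of all 29889 genes without the filter, the adjusted p was 0.469 for TNF and 0.38 for LTB. LTA, which lies 1.24 kb from TNF, had 6 counts in CELF6-OE and 4 in Control.

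Over all 10 genes, every CELF6-OE library lay below every Control library in scaled CPM for 6 (TNFSF9, TNFSF13B, TNFSF14, TNFRSF9, TNFRSF1B and CD40). The reverse held for 0, and the groups overlapped for 4. For TNFSF14 the separation depended on the scale, as its FPKM was 0.17 in replicate 3 of both groups. The same separation downwards was seen in 12.1% of all 29889 genes and in 20.0% of the 15847 genes tested, and upwards in 17.9% of the genes tested. The CELF6-OE library with the least CELF6, replicate 3, was the highest of the 3 CELF6-OE libraries for TNFSF13B, TNFRSF1B and CD40. It stood at 23.3%, 34.6% and 43.5% of the Control mean, compared with 10.7%, 20.0% and 35.7% in replicate 1 and 8.05%, 23.7% and 33.0% in replicate 2. Among all 922 genes called lower, replicate 3 was the highest in 70.7%, so these genes shared that order with most of them. For TNFSF9 and TNFRSF9 the highest CELF6-OE library was another one, replicate 1 at 81.5% and replicate 2 at 81.1%. Whether the amount of CELF6 has a part in this was not tested.

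The other ligands and receptors of the superfamily were looked up in the same fit. Of 12 other ligands listed 5 were tested, and 2 were called lower, against 5.82% of all genes tested. They were TNFSF10 (TRAIL) and TNFSF13, the latter admitted by the filter only through Control. TNFSF10 was read at 145, 77 and 221 counts in CELF6-OE libraries and at 1216, 1169 and 933 in Control libraries (log2 fold change -2.82, adjusted p = 5.05e-05). The other 3, TNFSF12, EDA and CD70, were not called, and CD70, which lies between TNFSF9 and TNFSF14 on chromosome 19, had a log2 fold change of -0.08 (adjusted p = 0.643). Of 25 other receptors listed 16 were tested, and NGFR, FAS and TNFRSF14, the last admitted only through Control, were called lower and 0 higher, against 5.82% and 1.35% of all genes tested. For FAS, the death receptor of FAS ligand, the log2 fold change was -0.73 (standard error 0.13, adjusted p = 0.00272), and for NGFR, the neurotrophin receptor, -1.45 (standard error 0.32, adjusted p = 0.00958). The NGFR call was lost without CELF6-OE replicate 2 (adjusted p = 0.052) and without Control replicate 2 (adjusted p = 0.0524). A further 5 receptors, TNFRSF21, TNFRSF10A, TNFRSF10B, TNFRSF10C and EDA2R, had an adjusted p under 0.05 with a smaller decrease, from -0.46 to -0.23. At that limit with no fold threshold, 11.5% of all genes tested were lower. TNFRSF10D was not called and went the other way (log2 fold change 0.25, adjusted p = 0.0725), with every CELF6-OE library above every Control library. TNFRSF12A, the abundant receptor of TWEAK, had mean FPKM values of 185 in CELF6-OE and 169 in Control, and like TNFRSF1A it was not called (log2 fold change 0.10, adjusted p = 0.534). The median log2 fold change was -0.13 for the other ligands and -0.28 for the other receptors.

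Downstream of the receptors, 29 adaptors and kinases were tested and 4 were called lower, against 5.82% of all genes tested. TRAF1, the inducible adaptor that pairs with TRAF2, was read at 118, 172 and 137 counts in CELF6-OE libraries and at 509, 507 and 631 in Control libraries (log2 fold change -1.88, standard error 0.14, adjusted p = 1.77e-05). TRADD, the death domain adaptor of TNFRSF1A, BIRC3, a ubiquitin ligase of the TNF receptor complex, and TNFAIP3, the deubiquitinase A20 that restrains NF-kB, had log2 fold changes of -0.74, -0.85 and -0.76. A further 6, TRAF4, RIPK1, CFLAR, RNF31, RBCK1 and TNIP1, had an adjusted p under 0.05 with a smaller decrease, from -0.39 to -0.26. With no fold limit, 10 of the 29 were thus lower at an adjusted p under 0.05, against 11.5% of all genes tested. TRAF2, FADD and the kinase subunits CHUK and IKBKB were not called, with log2 fold changes between -0.16 and 0.16, and the median of the list was -0.12. Of 8 sheddases and cofactors 0 were called by edgeR with the fold limit, against 5.82% of all genes tested called lower. The adjusted p was under 0.05 with a smaller decrease for 2, RHBDF2 and SPPL2B, against 11.5% of all genes with no fold limit. ADAM17, the protease that releases TNF, had a log2 fold change of 0.03 (adjusted p = 0.811).

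Among 25 genes known to be induced by TNF that were tested, 7 were called lower and 0 higher, against 5.82% and 1.35% of all genes tested, with a median log2 fold change of -0.23. CCL20, a chemokine, IL6, a cytokine, CSF1, a myeloid growth factor, and VCAM1, an adhesion molecule, were the genes with the smallest p, and their log2 fold changes were -1.56, -1.75, -0.66 and -2.29. ICAM1, an adhesion molecule, and MMP9, a gelatinase, had log2 fold changes of -1.40 and -1.04. Without CELF6-OE replicate 1 or 3 or Control replicate 2 the adjusted p of MMP9 was 0.0794 to 0.105. NFKBIA, the inhibitor that NF-kB itself induces, changed by less than the fold threshold, with a log2 fold change of -0.42 (adjusted p = 0.000944). NFKB2, SOD2, NFKBIE and TNFAIP8 had an adjusted p under 0.05 with smaller decreases too (log2 fold changes -0.47, -0.44, -0.34 and -0.31). With no fold limit, 12 of the 25 genes were lower at an adjusted p under 0.05, against 11.5% of all genes tested. CXCL1, CXCL2, CXCL3, NFKB1, BCL3 and TNFAIP2 were not called, with log2 fold changes between -0.06 and 0.09. CCL2, PLAU and IER3 were not called either, with positive log2 fold changes of 0.26, 0.22 and 0.18 (adjusted p 0.0816, 0.145 and 0.0879). For IER3 every CELF6-OE library lay above every Control library. Of the 25 genes tested, 18 had a log2 fold change below 0, against 48.4% of all genes tested. VCAM1, like TNFRSF14 and TNFSF13, passed the low-count filter only through the Control libraries, so its place among the called genes is a description.

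**Figure D4:**
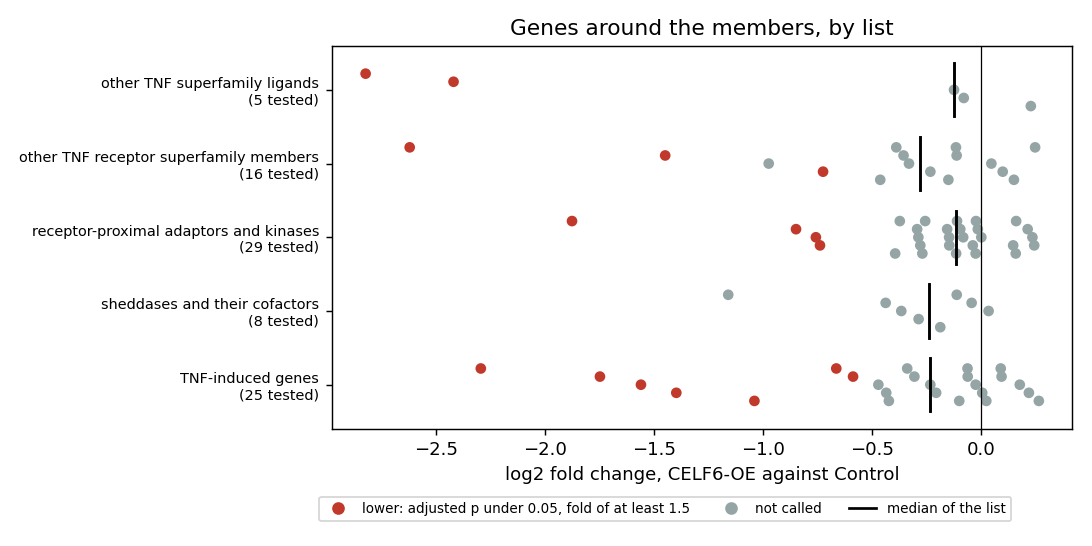
Log2 fold change of CELF6-OE against Control (x axis) for the tested genes of 5 lists around the TNF superfamily. Each point is a gene, red where called lower, and the black line is the median of the list. The called genes lie to the left of the 1.5-fold limit, the lowest at -2.82, and no gene of these lists was called higher.

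Markers of other cell types were read beside these results. The 13 leukocyte markers with a row summed to 10.4 to 13.6 CPM in CELF6-OE and 12.9 to 13.7 in Control. Of these, 4 were tested, and ITGAM and ITGAX were called lower, against 5.82% of all genes tested, with log2 fold changes of -0.73 and -0.69. These calls were lost without CELF6-OE replicate 2 for both genes, without Control replicate 2 for ITGAM and without CELF6-OE replicate 1 for ITGAX (adjusted p 0.0524 to 0.0751). PTPRC, MS4A1 and GNLY were at 0 to 2 counts in each library. Of 9 epithelial markers tested, CDH1, MUC1 and CLDN4 were called lower, against 5.82% of all genes tested, with log2 fold changes of -1.62, -1.47 and -1.52. KRT8 and KRT18 had log2 fold changes of -0.47 and -0.36. The summed level of the epithelial markers was 10400 to 12200 CPM in CELF6-OE and 13000 to 15600 in Control. The part of these marker changes in the results above was not tested. Of the annotated genes that overlap TNFSF13B, TNFRSF1B or CD40, only a lncRNA within TNFSF13B had a row in the count table, with 1 count in CELF6-OE and 0 in Control.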

How the data were processed

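RNA-seq libraries of 3 CELF6-OE and 3 Control cultures were used, grouped by their titles. Read trimming came first in the methods of the authors, who then used TopHat2 for alignment to GRCh38 and took uniquely located reads for counting. The counting tool, its strand setting and the annotation are not given in the sources used here. The deposited tables hold raw counts, which the authors left unscaled, and FPKM values at 2 decimals. Here, the genes were chosen by symbol, and the gene IDs were placed with GENCODE v44 (97.1% of all IDs matched).

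Counts were tested with edgeR 4.0.16 (R 4.3.3, TMM, glmQLFit and glmQLFTest) on the 15847 genes kept by filterByExpr (minimum count 10). Without the filter the prior degrees of freedom were infinite, so that the spread of single genes did not enter the p, and with it they were 7.15. The biological coefficient of variation was 8.62%. FPKM served for levels and ratios. Alternatives used other scalings, limma 3.58.1, DESeq2 1.42.0, other filters and thresholds, a replicate block and leaving out each library. Libraries of a group were no duplicates (chi-square per degree of freedom 7.67 to 29.3). Counts were simulated for this comparison (15847 genes) and read at an adjusted p under 0.05 in the right direction, without the fold limit. In them, 67, 67 and 66 genes with a mean count of at least 10 were changed 1.5-fold, 2-fold and 4-fold, up or down. The test recovered 65.7%, 89.6% and 100% of these, and 16 unchanged genes also had an adjusted p under 0.05. In the data, 1820 genes were lower and 1025 higher at that limit. The simulated rates pool all count levels and may differ for the data and for genes with low counts. Total counts were 33748328 to 37920700 per library, and intervals on summed counts are exact and cover counting error only.

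The genes, the 7 gene lists, written from general knowledge, and the tests were chosen with earlier results of these data known. The genes named from the lists were those called, up to 5 per direction in order of p, with the partners of the ligands and receptors. Further genes in the text (those with a smaller change or no call, and called genes beyond the first 5) were picked after their values were seen. Values of some genes named by this rule are not reported here.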

Additional observations from a re-analysis of the deposited data

How the results depend on the processing

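TNFSF13B, TNFRSF1B and CD40 were called lower under each alternative tried, and no gene of the set was called higher under any of them. The count of called genes was 3 to 4 when each library was left out, 4 without the low-count filter and with edgeR's exact test, TNFSF14 being the addition, and 5 with no fold limit. TNFRSF1A lay so close to 0 that its sign turned, to 0.0349 with library size only, 0.0266 and 0.0264 in limma on FPKM with a pseudocount of 0.1 and 1, and 0.0135 with the upper quartile. It ranged from -0.0442 to 0.032 when each library was left out, above 0 without CELF6-OE replicate 3 and without Control replicate 3. Its ratio of CELF6-OE to Control was 1.02 from FPKM and 0.997 from CPM. The adjusted p of TNFRSF9 rose above 0.05 in 9 alternatives and that of TNFSF9 in 5, leaving out CELF6-OE replicate 1, 2 or 3 or Control replicate 2 among them for each gene. The TNFSF14 call needed the filter to be dropped, the exact test, or CELF6-OE replicate 3 to be left out.

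Over all genes, 922 were called lower and 214 higher. Limma on log2(FPKM + 1) called 417 and 53, a fold limit of 2 gave 475 and 64, and no fold limit 1820 and 1025. Leaving out each library gave 664 to 987 lower and 103 to 367 higher, with 367 higher without Control replicate 1, 103 without CELF6-OE replicate 2 and 113 without Control replicate 2. In the 5 pathway lists 83 genes were tested and 16 were called lower, against 5.82% of all genes tested. Of these 16, TNFSF13, TNFRSF14 and VCAM1 passed the low-count filter only through Control. The count was 14 to 18 with a library left out and 8 with limma on log2(FPKM + 1). A fold limit of 2 gave 10, and no fold limit gave 34, against 11.5% of all genes tested. TNFRSF14, FAS and NGFR were among those lost on the log2(FPKM + 1) scale. The mean CELF6 FPKM in CELF6-OE was 221 to 283 with a replicate left out. Same-numbered replicates of the groups did not deviate together (correlations -0.0113, -0.0212 and -0.0722), so a shared replicate effect was not detected. Whether same-numbered cultures were handled together cannot be read from this, and the main fit did not pair them. The replicate block called 3 genes of the set lower, and TNFSF9 had an adjusted p of 0.0524 with it. Depth limited TNF and LTB, with at most 20 counts in a library, and the p-values measure the spread of 3 cultures of 1 line.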
